A study of Mus musculus with 42 samples.

Results

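The genes described here encode the machinery of MHC class I presentation. They are 9 of the 37310 genes in the count table and are a list of names fixed by their roles and not by a threshold on measured values, although earlier results of these data were known when it was drawn up: H2-K1, H2-D1, H2-T23, B2m, Tap1, Tap2, Tapbp, Erap1 and Nlrc5. All 9 passed the filter on low counts, with 11624 genes tested in all. They were measured by total RNA-seq in bone-marrow-derived macrophages (BMDMs), cells grown from mouse marrow, in 42 libraries that fall into 14 groups of 3. Each genotype label, WT or KO, was sampled untreated (Control) at 0, 2 and 24 h, with palmitate at 2 and 24 h, and with bacterial lipopolysaccharide (LPS) at 2 and 24 h. Palmitate, a saturated fatty acid, served as a model of lipid overload, and LPS is a bacterial wall component sensed by Toll-like receptor 4. Per the study's methods, the mice were young males on a C57BL/6 background, WT animals are the comparison without the deletion, and KO animals carry floxed Irf5 alleles with a Cre recombinase driven from Lyz2, so that deletion is limited to myeloid cells. All groups shared the same culture in which marrow was differentiated with macrophage growth factor.

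Class I molecules display peptides from proteins made inside the cell to CD8 T cells and natural killer cells. Peptides cut by the proteasome enter the endoplasmic reticulum through a transporter built from Tap1 and Tap2. There the aminopeptidase Erap1 trims them, and Tapbp (tapasin) helps to load them onto a heavy chain paired with the light chain B2m. H2-K1 and H2-D1 are classical heavy chains, H2-T23 encodes the non-classical chain Qa-1b, and Nlrc5 is a transactivator that acts at class I promoters. In macrophages, class I genes are known to respond to interferons, which LPS can induce.

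Libraries held between 2848793 and 7743442 counts, and a floor of 3 counts corresponded to between 0.387 and 1.05 CPM, which are counts scaled to a common library total. Levels are given as CPM scaled by the trimmed mean of M-values (TMM). The floors cover counting error only, while SDs and SEs include the spread between libraries. The gene targeted in the KO, Irf5, was not lower in the libraries labelled KO. By edgeR (adjusted p under 0.05) it was higher in them at Control 0 h and LPS 24 h, by 0.47 (SE 0.06) on the log2 scale in each. It was also higher at Control 2 h (0.26, SE 0.06) and with palmitate at 24 h (0.31, SE 0.06), though leaving out 1 library could lose these calls. By this test it was not called in the other conditions. Irf5 ranged from 209 to 388 CPM over the 21 WT libraries and from 267 to 430 CPM over the 21 KO libraries, so these are written as the libraries labelled KO throughout. Gene-level counts cannot show which exons the Irf5 reads came from, so this check does not settle the label. Lyz2, the gene that hosts Cre, ranged from 8016 to 14570 CPM in WT and from 4677 to 8755 CPM in KO. By the same test Lyz2 was lower in KO in every condition. The macrophage markers Adgre1, Cd68, Csf1r and Itgam were each at 532 CPM or more in every library. The other macrophage markers listed were lower, down to 72.8 CPM for Cd14, 39.9 for Mrc1 and 139 for Mertk. Of the T or NK cell markers, Ncr1 reached the highest level, 1.20 CPM. The B cell marker Cd79b ran from 2.34 to 12.8 CPM, and the erythroid marker Hbb-bs was at 0 in all 42 libraries. Markers of granulocyte precursors and fibroblasts are given below. The labels do not tie the libraries to separate animals, so p-values measure only the spread between these libraries.

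Of the 9 genes, 6 lie in the major histocompatibility complex on chromosome 17 (coordinates in GRCm38/mm10). Tapbp (ENSMUSG00000024308) spans chr17:33915899-33929292 and H2-K1 (ENSMUSG00000061232) chr17:33996017-34000347. Tap1 (ENSMUSG00000037321) lies at chr17:34187553-34197225 and Tap2 (ENSMUSG00000024339) at chr17:34203527-34216321. H2-D1 (ENSMUSG00000073411) covers chr17:35262730-35267499 and H2-T23 (ENSMUSG00000067212) chr17:36029773-36032855. The other three are elsewhere: B2m (ENSMUSG00000060802) at chr2:122147686-122153083, Erap1 (ENSMUSG00000021583) at chr13:74639568-74693201 and Nlrc5 (ENSMUSG00000074151) at chr8:94434356-94527272. Values are sums over annotated exons, which total 860 bases for B2m and 8493 bases for Nlrc5.

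The promoter table of RefSeq (GRCm38.p6) held windows of 300 bases, 250 before and 50 after the annotated start, for 7 of the 9 genes; Tap2 and Nlrc5 have none. In all, 5 of these windows are shown because they span the largest responses (Tap1, H2-T23), the abundant light chain and the classical heavy chains. They are written 5′ to 3′ on the gene's own strand, with capitals marking each match, on either strand, to AANNGAAA, the core that interferon regulatory factors are known to bind. For H2-K1, which has 2 overlapping windows, the first is given.
H2-K1 chr17:34000284-34000583 (- strand): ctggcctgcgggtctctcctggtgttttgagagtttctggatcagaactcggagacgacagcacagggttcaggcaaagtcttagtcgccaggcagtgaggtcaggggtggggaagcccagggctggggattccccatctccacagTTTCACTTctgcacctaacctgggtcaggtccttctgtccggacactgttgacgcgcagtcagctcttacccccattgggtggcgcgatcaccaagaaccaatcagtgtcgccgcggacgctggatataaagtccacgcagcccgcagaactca
H2-D1 chr17:35262844-35263143 (+ strand): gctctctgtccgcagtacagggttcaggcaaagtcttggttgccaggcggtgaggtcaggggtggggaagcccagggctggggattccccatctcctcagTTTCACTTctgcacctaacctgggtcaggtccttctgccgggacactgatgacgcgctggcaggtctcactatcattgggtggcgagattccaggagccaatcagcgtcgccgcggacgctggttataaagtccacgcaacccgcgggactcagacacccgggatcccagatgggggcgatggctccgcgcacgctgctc
H2-T23 chr17:36032652-36032951 (- strand): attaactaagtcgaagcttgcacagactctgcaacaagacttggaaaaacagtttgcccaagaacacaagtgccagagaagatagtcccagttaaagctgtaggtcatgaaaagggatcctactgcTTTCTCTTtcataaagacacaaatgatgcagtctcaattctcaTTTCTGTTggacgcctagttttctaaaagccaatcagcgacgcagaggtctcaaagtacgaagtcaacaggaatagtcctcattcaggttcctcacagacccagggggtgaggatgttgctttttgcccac
B2m chr2:122147437-122147736 (+ strand): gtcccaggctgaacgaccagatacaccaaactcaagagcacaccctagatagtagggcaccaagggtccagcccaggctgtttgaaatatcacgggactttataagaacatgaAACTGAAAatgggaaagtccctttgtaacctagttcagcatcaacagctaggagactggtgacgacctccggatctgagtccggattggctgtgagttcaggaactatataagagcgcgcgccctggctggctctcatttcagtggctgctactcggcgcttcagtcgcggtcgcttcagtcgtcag
Tap1 chr17:34187306-34187605 (+ strand): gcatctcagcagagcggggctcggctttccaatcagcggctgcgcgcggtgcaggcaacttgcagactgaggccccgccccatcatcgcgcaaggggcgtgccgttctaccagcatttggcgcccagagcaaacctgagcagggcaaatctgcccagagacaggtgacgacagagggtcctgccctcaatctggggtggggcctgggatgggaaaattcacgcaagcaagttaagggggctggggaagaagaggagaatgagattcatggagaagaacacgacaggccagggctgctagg

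The AANNGAAA core was found in the windows of 5 of 7 genes, against 23.9% of the 32851 promoter windows in the table. It lay at bases -104 to -97 from the start in H2-K1, -150 to -143 in H2-D1, -137 to -130 in B2m, and -4 to 3 in Erap1. H2-T23 had 2 matches, at -124 to -117 and -81 to -74, while the Tap1 and Tapbp windows had none. The longer element GAAANNGAA, which can overlap the core, was present in 3 of 7 genes (H2-T23, B2m and Erap1) against 8.56% of all windows. The NF-kappaB pattern GGGANTNNC occurred in 4 of 7 genes (H2-K1, H2-D1, H2-T23 and B2m) against 14% of windows, and the Y box ATTGG in 6 of 7, all but Erap1, against 37.4%. H2-K1 and H2-D1 shared an unbroken run of 47 bases, whereas the longest run shared by any other pair of these genes was 12 bases. These matches are descriptions of the letters in the window.

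LPS for 24 h raised all 9 genes, in the WT libraries and in the libraries labelled KO. Tap1, one chain of the peptide transporter, increased 8.29-fold in WT and 8.62-fold in KO, and H2-T23 increased 6.85-fold and 6.33-fold. The smallest increases were those of Erap1 (1.86-fold and 1.63-fold) and H2-D1 (1.96-fold and 1.94-fold). Of all genes tested, 19.6% were called higher in WT and 19.9% in KO (edgeR's quasi-likelihood test, Benjamini-Hochberg adjusted p under 0.05). The median log2 fold change of the 9 genes was 1.68 in WT and 1.78 in KO, beside a median of -0.01 over all genes in both. Each gene was higher in all 6 LPS 24 h libraries than in any of the 36 other libraries. The share of all genes with this separation was not counted, so how unusual it is cannot be told. In bulk RNA, a change in the mix of cells and a change in RNA per cell cannot be told apart.

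**Figure D1:**
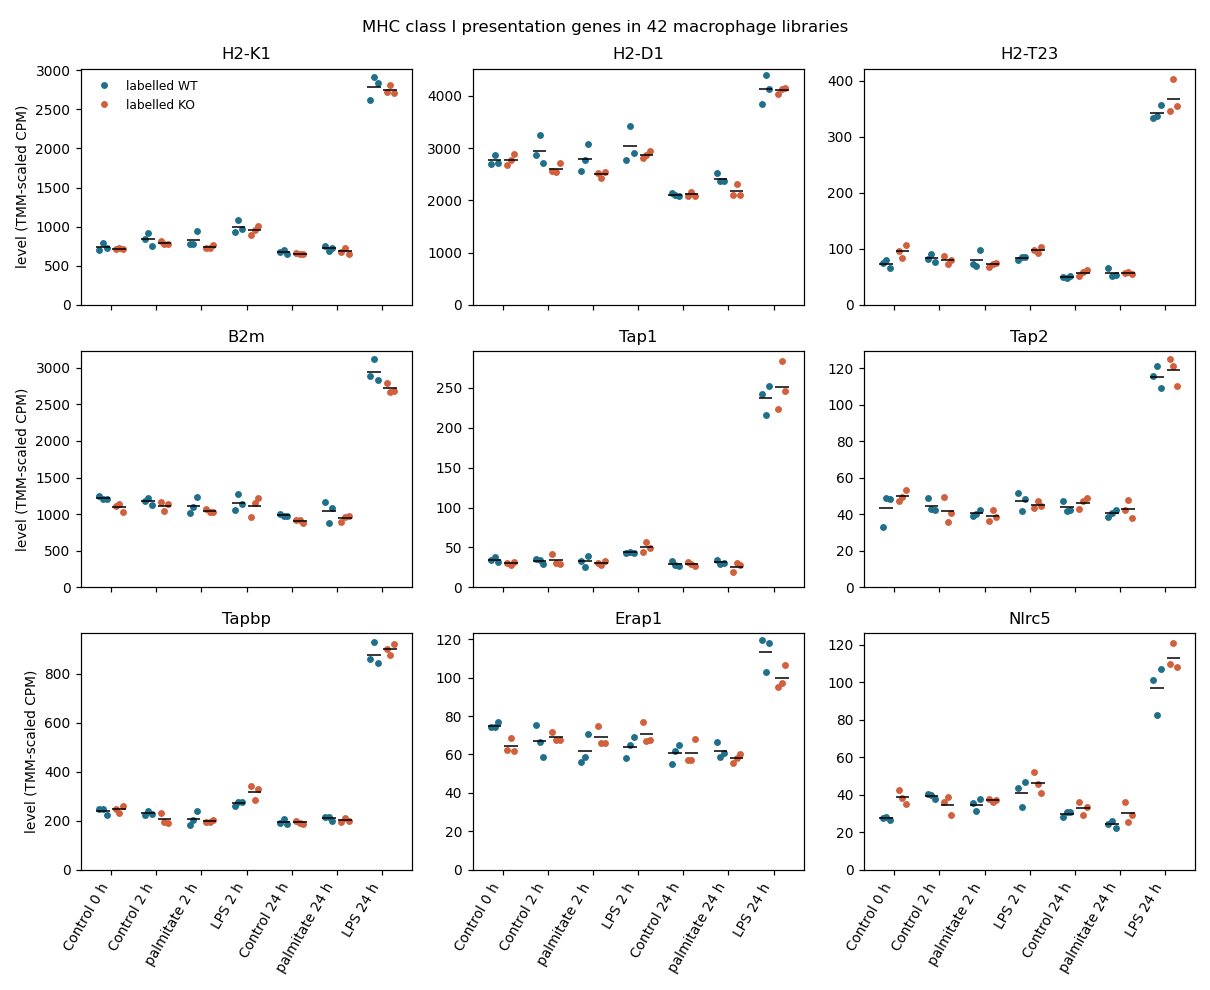
Level of each gene in every library (TMM-scaled CPM, axes from 0) by condition. Points are libraries (3 a group), coloured by genotype label, and black lines are group means. In all 9 panels the 6 LPS 24 h libraries lie above the 36 others.

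Among the heavy chains, H2-K1 stood at 682, 703 and 654 CPM in the WT Control 24 h libraries and at 2621, 2907 and 2830 CPM in the WT LPS 24 h libraries. In the libraries labelled KO it was at 667, 649 and 652 CPM in Control and 2724, 2814 and 2714 CPM with LPS. The groups were far apart, and H2-K1 rose by 2.04 (SE 0.07) in WT and 2.07 (SE 0.07) in KO on the log2 scale, with adjusted p = 7.1e-30 and 3.19e-30. H2-D1 was the most abundant heavy chain in Control, at 2135, 2095 and 2083 CPM in WT and 2086, 2168 and 2091 CPM in KO. LPS brought it to 3846, 4404 and 4136 CPM in WT and to 4030, 4129 and 4150 CPM in KO. These ranges did not overlap either, and the log2 fold changes were 0.97 (SE 0.06) and 0.96 (SE 0.06), with adjusted p = 2.7e-18 and 4.58e-18. H2-T23, whose product Qa-1b is a ligand of the inhibitory NKG2A receptor, was the scarcest of the 3 heavy chains in the set. It was at 49.6, 48.3 and 52.0 CPM in WT Control and 335, 338 and 357 CPM in WT LPS libraries. The corresponding KO libraries were at 51.3, 59.2 and 62.5 CPM and at 346, 404 and 355 CPM. Its log2 fold changes were 2.78 (SE 0.10, adjusted p = 1.33e-28) in WT and 2.66 (SE 0.10, adjusted p = 2.55e-28) in KO.

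The light chain B2m, required for stable display of heavy chains, rose about as much in both genotypes. WT Control 24 h libraries were at 998, 970 and 976 CPM and WT LPS 24 h libraries at 2882, 3116 and 2830 CPM. KO Control libraries were at 921, 924 and 884 CPM and KO LPS libraries at 2796, 2668 and 2682 CPM. All LPS libraries therefore lay far above all Control libraries, with log2 fold changes of 1.58 (SE 0.07, adjusted p = 5.38e-24) in WT and 1.58 (SE 0.07, adjusted p = 6.03e-24) in KO.

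In the loading complex, Tap1 moved from 33.1, 27.7 and 26.2 CPM to 242, 216 and 252 CPM in WT. In KO it moved from 31.8, 29.1 and 27.2 CPM to 224, 283 and 246 CPM. The log2 fold changes, 3.05 (SE 0.12, adjusted p = 1.5e-26) and 3.11 (SE 0.12, adjusted p = 4.87e-27), were the largest of the 9. Tap2, the partner chain, moved from 47.1, 41.95 and 42.2 CPM to 116, 121 and 109 CPM in WT. In KO it went from 42.9, 47.3 and 49.1 CPM to 125, 121 and 110 CPM. Its log2 fold changes were 1.41 (SE 0.10, adjusted p = 2.75e-16) and 1.35 (SE 0.10, adjusted p = 7.04e-16), again with no overlap between groups. Tapbp rose from 192, 206 and 187 CPM to 862, 927 and 844 CPM in WT. In KO it rose from 201, 192 and 189 CPM to 901, 876 and 921 CPM. These changes were 2.17 (SE 0.07, adjusted p = 1.01e-29) and 2.22 (SE 0.07, adjusted p = 3.59e-30) on the log2 scale.

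Erap1 changed least. WT libraries were at 55.2, 61.6 and 65.1 CPM in Control and 120, 103 and 118 CPM with LPS, and KO libraries at 57.1, 57.2 and 68.3 CPM and at 95.1, 97.0 and 107 CPM. LPS libraries lay above Control libraries in both genotypes, with log2 fold changes of 0.89 (SE 0.09, adjusted p = 8.19e-12) and 0.70 (SE 0.09, adjusted p = 7.03e-09). Nlrc5 was at 28.3, 30.99 and 30.7 CPM in WT Control and 101, 82.5 and 107 CPM in WT LPS libraries. In KO it was at 35.96, 29.5 and 33.4 CPM and at 110, 121 and 108 CPM. The log2 fold changes of this transactivator were 1.68 (SE 0.12, adjusted p = 1.54e-17) and 1.78 (SE 0.11, adjusted p = 8.08e-19).

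**Figure D2:**
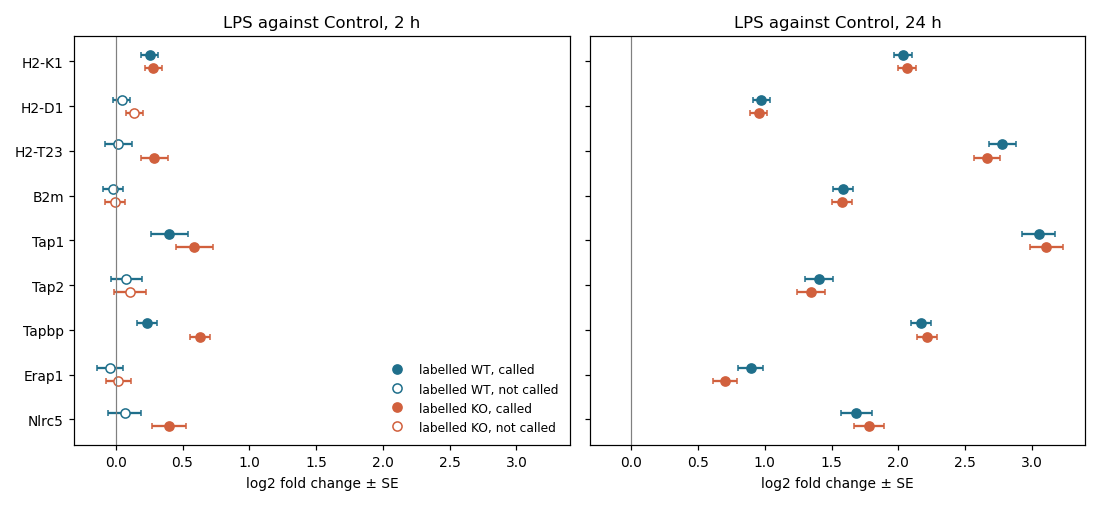
Log2 fold change of LPS over Control (horizontal axis, bars are SE from edgeR) for each gene at 2 h (left) and 24 h (right). Filled points passed adjusted p under 0.05. At 24 h all 9 points are filled for both labels, from 0.70 to 3.11, and at 2 h 3 are filled for WT and 5 for KO.

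At 2 h the response was small. In WT, 3 of the 9 genes were called higher, against 14% of all genes: H2-K1 by 0.25 (SE 0.07, adjusted p = 0.00296), Tap1 by 0.40 (SE 0.14, adjusted p = 0.0276) and Tapbp by 0.24 (SE 0.07, adjusted p = 0.014) on the log2 scale. In KO, 5 were called higher, against 14.7% of all genes. They were H2-K1 by 0.28 (SE 0.07, adjusted p = 0.000858), H2-T23 by 0.29 (SE 0.10, adjusted p = 0.0318), Tap1 by 0.59 (SE 0.14, adjusted p = 0.000691), Tapbp by 0.63 (SE 0.07, adjusted p = 8.5e-10) and Nlrc5 by 0.40 (SE 0.12, adjusted p = 0.0134). None was called lower, against 9.1% of all genes in WT and 9.16% in KO. Both counts rest on single libraries. Without Control 2 h library 3, or without LPS 2 h library 2, none of the 3 WT calls held (edgeR). Over all libraries, 3 members had an unadjusted p under 0.05 in WT, beside 3779 of the 11624 genes tested. In KO the count was 3 without Control 2 h library 3 or without LPS 2 h library 1, H2-T23 and Nlrc5 being the calls lost in both cases. Tapbp, which had the lowest adjusted p in KO, was at 225, 239 and 229 CPM in WT Control 2 h and 262, 277 and 275 CPM in WT LPS 2 h. In KO it was at 232, 193 and 192 CPM in Control and 341, 286 and 330 CPM with LPS, so the groups did not overlap. Markers of other cells moved at the same time. Of 6 granulocyte precursor markers tested, 4 were called higher in WT and 2 in KO, and the summed level of the 8 listed went from 20.7 to 37.3 CPM in WT Control 2 h to 50.1 to 76.6 CPM in WT LPS 2 h. The summed level of 4 fibroblast markers was 63.4 to 101 CPM in KO Control 2 h and 0.758 to 132 CPM in KO LPS 2 h, with none called. In that list, Dcn and Pdgfra reached at most 0.765 and 1.01 CPM in any library, so its high sums came from Col1a1 and Col1a2. The part of both lists in these results was not tested. B2m had log2 fold changes of -0.02 (SE 0.07) in WT and -0.0044 (SE 0.07) in KO, neither called, and H2-D1, Tap2 and Erap1 were not called in either genotype.

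The response at 24 h was larger than at 2 h for all 9 genes in both genotypes when the difference itself was tested, against 14.5% of genes in WT and 14.3% in KO. The difference of log2 fold changes ran from 0.93 (H2-D1) to 2.76 (H2-T23) in WT and from 0.68 (Erap1) to 2.52 (Tap1) in KO. It also holds the change of Control between these times, which varied by gene. H2-D1 in WT Control was at 2947 CPM at 2 h and 2104 CPM at 24 h, against 3037 and 4129 CPM with LPS. Tap2 in WT Control was at 44.6 and 43.75 CPM. Directly against palmitate, with both genotypes averaged, LPS gave higher levels of 7 of 9 genes at 2 h, against 19.2% of all genes, and of all 9 at 24 h, against 25.4%. At 2 h B2m and Erap1 were the exceptions, with 0.08 (SE 0.05) and 0.04 (SE 0.07). The Tap2 call (0.21, SE 0.08, adjusted p = 0.0406 by edgeR) was lost with no filter on low counts and with only the libraries compared, and with 1 library left out the count of 7 ran from 5 to 7 as Tap2, H2-D1 or Nlrc5 lost their calls.

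With palmitate alone, no member was called in any of 4 comparisons with Control by edgeR. Of all genes, 0.275% were called in WT at 2 h, 0.112% in KO at 2 h, 0.852% in WT at 24 h and 0.877% in KO at 24 h. DESeq2 also called 0 members. At an unadjusted p under 0.05 there were 866, 536, 1049 and 928 of the 11624 genes tested in these comparisons. The members among them numbered 0, 0, 2 and 0. The pair were H2-D1, at 2415 ± 89.2 CPM with palmitate and 2104 ± 26.96 CPM in Control (SD, n = 3 each; log2 fold change 0.20, SE 0.06, adjusted p = 0.164 by edgeR), and Nlrc5, at 24.2 ± 1.74 CPM with palmitate and 30 ± 1.47 CPM in Control (-0.32, SE 0.13, adjusted p = 0.401 by edgeR). The 9 fold changes lay between -0.17 and -0.0014 in WT at 2 h and between -0.32 and 0.20 in WT at 24 h, with SEs of 0.06 to 0.14. In KO the 9 lay between -0.15 and 0.10 at 2 h and between -0.15 and 0.06 at 24 h, with SEs of 0.06 to 0.15. At 24 h in KO, H2-D1 had 0.04 (SE 0.06) and Nlrc5 -0.12 (SE 0.13), neither called.

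Control culture itself moved some members. At 24 h against 0 h, both genotypes averaged, 4 of 9 were lower, against 8.62% of genes lower and 7.9% higher. H2-T23 fell by 0.64 (SE 0.07), H2-D1 by 0.39 (SE 0.04), Tapbp by 0.32 (SE 0.05) and B2m by 0.29 (SE 0.05) on the log2 scale. At 2 h against 0 h, H2-K1 was higher by 0.15 (SE 0.05, adjusted p = 0.0169 by edgeR) and Tapbp fell by 0.16 (SE 0.05, adjusted p = 0.0261 by edgeR), against 9.35% of genes higher and 7.36% lower. Leaving out 1 Control library brought that count of 2 to 0 or 1 in 9 of 12 trials, so these small shifts depended on single libraries.

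The comparison of the genotype labels gave few differences among the 9 genes. At Control 0 h, H2-T23 and Nlrc5 were higher in the libraries labelled KO, against 6.4% of all genes called higher there. H2-T23 was at 96.7, 83.5 and 107 CPM in KO and 75.4, 80.6 and 65.9 CPM in WT, a log2 difference of 0.37 (SE 0.10, adjusted p = 0.00855). Nlrc5 was at 42.7, 38.1 and 34.9 CPM in KO and 27.7, 28.4 and 26.6 CPM in WT, a log2 difference of 0.49 (SE 0.12, adjusted p = 0.00603). The H2-T23 call was lost without WT library 3 (0.29, adjusted p = 0.0952 by edgeR) or without KO library 3 (0.29, adjusted p = 0.0956 by edgeR), which left a count of 1. Markers of macrophages and of other cells differed between the same groups. Of 7 macrophage markers, 2 were called higher and 4 lower in KO. The summed level of 4 fibroblast markers was 37.8 to 63.3 CPM in KO and 0.132 to 0.904 CPM in WT at Control 0 h. Its high values came from Col1a1 and Col1a2, since Dcn and Pdgfra reached at most 0.765 and 1.01 CPM in any library. The sum of 8 granulocyte precursor markers was 81.4 to 87.6 CPM in KO and 50.8 to 61.2 CPM in WT. The part of all these markers in the result was not tested. The granulocyte precursor sum was above all WT libraries in all KO libraries of every condition but LPS 24 h, for example at 70.8 to 137 against 20.7 to 37.3 CPM in Control 2 h and 136 to 241 against 50.1 to 76.6 CPM in LPS 2 h. Related genes, listed below, also differed at Control 0 h. Of 10 other class I heavy chains tested, 4 were called higher in KO and 0 lower, some of them near 1 CPM in WT. Of 4 endoplasmic reticulum chaperones, 0 were called higher and 3 lower. Of 14 transcription factors linked to class I genes, 2 were called higher and 0 lower. Ciita, the class II transactivator, chosen after its values were seen, was at 22.01 ± 8.67 CPM in KO and 4.47 ± 1.61 CPM in WT at Control 0 h (SD, n = 3 each; log2 difference 2.30, SE 0.31, adjusted p = 6.09e-07 by edgeR).

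No member was called between the genotype labels in the other 6 conditions, by edgeR or DESeq2. Of all genes, 0.49% were called at Control 2 h, 0.146% with palmitate at 2 h, 0.465% with LPS at 2 h, 0.12% at Control 24 h, 0.0688% with palmitate at 24 h and 0.146% with LPS at 24 h. At an unadjusted p under 0.05 there were 2, 2, 2, 0, 2 and 2 members in these 6, in the same order. Of the 11624 genes tested, 1172, 1032, 1342, 587, 891 and 1055 passed this unadjusted threshold. At Control 0 h, 4 members (H2-T23 and Nlrc5 higher in KO, B2m and Erap1 lower) and 2917 genes passed it. The LPS response itself was compared between the labels: 0 members were called at 2 h, where 0% of genes were, and 0 at 24 h, where 0.0086% were, by edgeR or DESeq2. One member had an unadjusted p under 0.05 at 2 h, Tapbp, and none had at 24 h, beside 810 and 625 of all genes. The Tapbp response was larger in KO by 0.39 (SE 0.10, adjusted p = 0.342). At 24 h the differences ran from -0.19 (Erap1, SE 0.13) to 0.10 (Nlrc5, SE 0.16). For the palmitate response, 0 members were called at either time, where 0% of genes were, and 0 had an unadjusted p under 0.05. Of all genes, 486 had such a p at 2 h and 411 at 24 h.

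**Figure D3:**
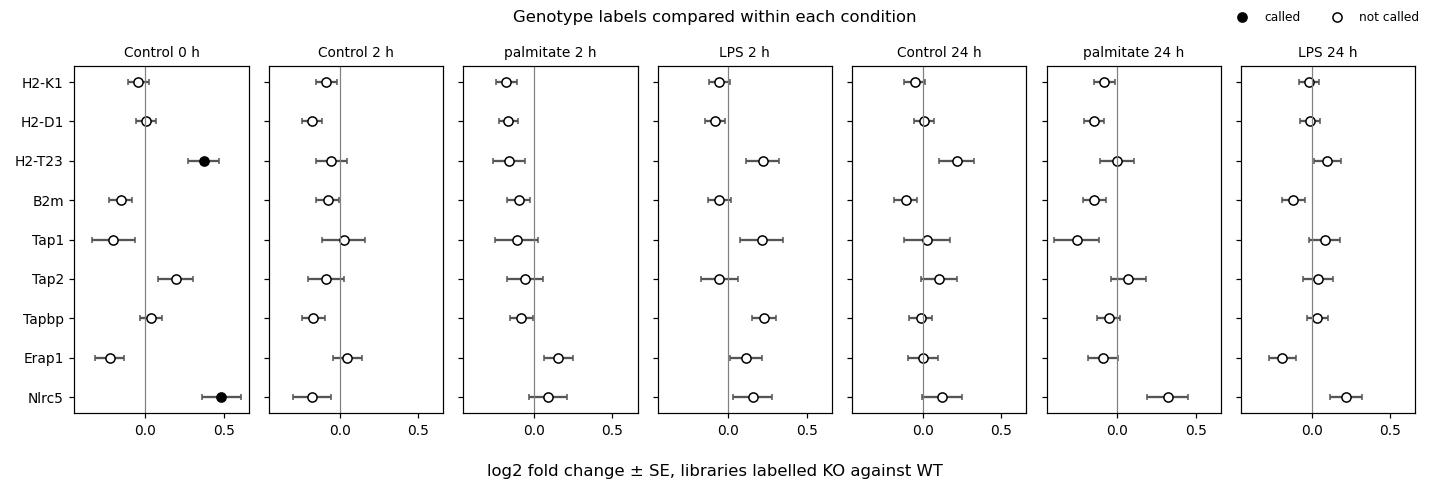
Log2 fold change of the libraries labelled KO over WT for each gene (horizontal axis, bars are SE from edgeR), one panel per condition. Filled points passed adjusted p under 0.05, which was the case for H2-T23 (0.37) and Nlrc5 (0.49) at Control 0 h and for no other point.

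The genes rose by different factors, and the proportions among them therefore shifted at LPS 24 h. Per kb of exon, H2-K1 was at 0.235 ± 0.007 of the level of H2-D1 in WT Control 0 h and at 0.284 ± 0.010 in WT Control 24 h. At LPS 24 h the ratio was 0.593 ± 0.012 in WT and 0.588 ± 0.013 in KO (SD, n = 3 each), and no library outside LPS 24 h exceeded 0.303. Tap1 was below Tap2 per kb in every library outside LPS 24 h, at most 0.833, and above it in all 6 LPS 24 h libraries, at 1.42 ± 0.18 in WT and 1.46 ± 0.20 in KO. This crossing depends on the exon lengths used, 5476 bases for Tap1 and 3781 for Tap2. In CPM, Tap1 was already above Tap2 in KO LPS 2 h, at means of 50.2 and 45.0. The share of H2-T23 among the 3 heavy chains per kb was 1.62% ± 0.08 in WT Control 24 h and 4.46% ± 0.26 in WT LPS 24 h, and in KO 1.88% ± 0.18 and 4.80% ± 0.33. B2m per kb was 1.07 ± 0.01 times the sum of the 3 heavy chains in WT Control 24 h and 1.28 ± 0.06 times in WT LPS 24 h. Together the 9 genes held 0.437% ± 0.003 of all counts in WT Control 24 h libraries and 1.17% ± 0.03 in WT LPS 24 h libraries, and 0.432% ± 0.004 and 1.15% ± 0.01 in KO.

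**Figure D4:**
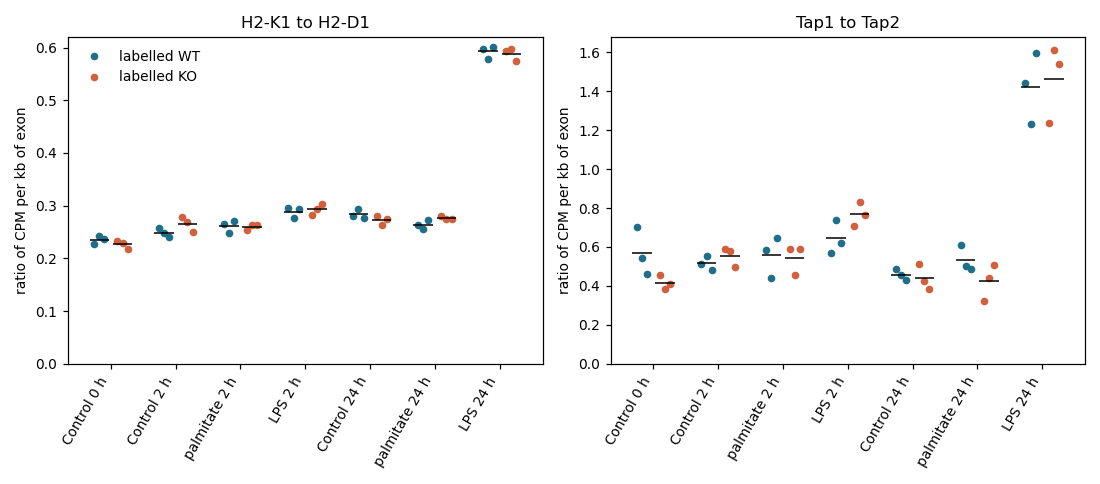
Ratio of levels per kb of exon (vertical axes from 0) of H2-K1 to H2-D1 (left) and Tap1 to Tap2 (right) in each library by condition; lines are means of 3 libraries. H2-K1 to H2-D1 is about 0.59 at LPS 24 h and at most 0.303 elsewhere, and Tap1 to Tap2 exceeds 1 at LPS 24 h alone.

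Within the ranking of the 14 group means, the 2 LPS 24 h groups stood apart from the third for all 9 genes, which was not counted over all genes. Among the remaining 12 groups, neighbours overlapped in library values in all 11 neighbouring pairs for H2-K1, B2m, Tap2 and Erap1, in 10 for H2-T23, Tap1 and Nlrc5, in 9 for H2-D1 and in 8 for Tapbp. For Tapbp the KO LPS 2 h libraries, then the WT LPS 2 h libraries, stood apart. Over the 14 group means, the correlation of log2 CPM between pairs of members had a median Pearson r of 0.95, and 0.60 over the 12 groups without LPS 24 h, for 36 pairs. Within groups, over 42 libraries, the median was 0.25, and the points share libraries, depth and scaling. The genes outside the set with profiles most like it over the 14 means were Trim30a (r = 0.997), Sp100 (0.996), Irf7 (0.995), Parp12 (0.995), Phf11d (0.995), Dhx58 (0.995), Lgals3bp (0.994) and Ms4a6c (0.994). Irf7 went from 21.6 to 1605 CPM, and Trim30a from 59.4 to 355 CPM, between WT Control 24 h and WT LPS 24 h.

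Around these 9, other class I heavy chains had the largest median response of the lists. Of 17 listed, 16 were in the table and 10 were tested. At LPS 24 h, 9 of 10 were called higher in WT and in KO, beside 19.6% and 19.9% of all genes. Their median log2 fold changes were 3.71 and 3.94. Some were near 1 CPM without LPS, such as H2-K2 at 1.01 and H2-Q6 at 1.22 CPM in WT Control 0 h. The filter on low counts could have kept such genes only through groups where they were high, which would favour called genes. In WT H2-T22 rose from 38.95 ± 3.30 to 515 ± 26.3 CPM, H2-Q4 from 23.4 ± 2.84 to 255 ± 23.9 CPM, H2-Q6 from 1.89 ± 0.80 to 204 ± 23.6 CPM and H2-Q7 from 3.23 ± 0.86 to 182 ± 10.7 CPM (SD, n = 3 each). These genes share sequence: 31.5% of the 100-base windows of H2-T22, 13.04% of those of H2-Q6 and 12.0% of those of H2-Q7 occur in another gene, against 3.59% for H2-D1, 0.957% for H2-K1 and 3.15% for H2-T23, so reads could be divided between copies. At 2 h, 6 of 10 were called higher in each genotype, beside 14% of all genes in WT and 14.7% in KO. H2-Q4 rose by 1.06 (SE 0.11) in WT on the log2 scale. Among class I-like molecules, 1 of 4 was called higher in WT at 24 h, Cd1d1, which presents lipids, from 5.72 ± 2.16 to 17.1 ± 6.34 CPM. Another, the iron regulator Hfe, was called lower in WT and fell by 0.32 (SE 0.11) on the log2 scale. Of all genes in WT, 19.6% were called higher and 19.9% lower. In KO 1 of the 4 was called higher and 0 lower, beside 19.9% and 21% of all genes.

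The proteasome supplies the peptides. Of the immunoproteasome and PA28 regulator genes, 4 were tested and 4 were called higher at LPS 24 h in both genotypes. Their median log2 fold changes were 2.12 in WT and 2.19 in KO. Of all genes, 19.6% in WT and 19.9% in KO were called higher. Psmb8, a catalytic subunit that replaces Psmb5 in the immunoproteasome, went from 108 ± 3.40 to 474 ± 25.8 CPM in WT, and Psme1 from 138 ± 11.5 to 470 ± 15.9 CPM. Psmb10 rose by 2.25 (SE 0.13) and Psme2 by 2.11 (SE 0.10) on the log2 scale. Of 4 constitutive counterparts, 3 were called higher in each genotype, with medians of 0.45 and 0.49, and Psmb5 went from 24.0 ± 2.20 to 35.3 ± 4.17 CPM. Of the endoplasmic reticulum chaperones, 4 of 4 were called higher in WT and 3 of 4 in KO. Tapbpl, a tapasin relative, went from 7.50 ± 2.30 to 22.6 ± 3.17 CPM in WT and Calr (calreticulin) from 813 ± 34.9 to 1352 ± 115 CPM, while Canx in KO had 0.10 (SE 0.05, adjusted p = 0.136 by edgeR). Of 6 cytosolic and vesicular peptidases, 1 was called higher and 2 lower in WT, beside 19.6% of all genes higher and 19.9% lower. The higher one, Lnpep, had 0.17 (SE 0.06, adjusted p = 0.0286 by edgeR), a call lost with no filter on low counts, with only the libraries compared and without Control 24 h library 2, LPS 24 h library 1 or LPS 24 h library 2. Tpp2 fell by 0.33 (SE 0.07) and Blmh by 0.50 (SE 0.13) on the log2 scale.

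Of 14 transcription factors linked to class I genes, 5 were called higher and 2 lower at LPS 24 h in each genotype, beside 19.6% of all genes higher and 19.9% lower in WT and 19.9% and 21% in KO. Stat2, part of the complex that carries type I interferon signals to the nucleus, went from 37.4 ± 1.97 to 368 ± 47.9 CPM in WT. Irf1, known to act at class I promoters, was highest early: 506 ± 21.1 CPM at LPS 2 h against 50.8 ± 2.64 in Control 2 h, and 87.0 ± 7.20 against 33.8 ± 3.82 CPM at 24 h. Irf9 rose by 1.52 (SE 0.11) at 24 h, and Rfx5, which binds the X box, by 0.72 (SE 0.21) in WT while it was at 0.21 (SE 0.21, adjusted p = 0.467 by edgeR) in KO; the difference between the labels was -0.51 (SE 0.30, adjusted p = 0.957 by edgeR) and not called. Of 9 interferon ligand and receptor genes tested, 7 in WT and 8 in KO were called higher at 2 h, and 6 and 5 at 24 h, beside 14%, 14.7%, 19.6% and 19.9% of all genes. The interferon-beta gene Ifnb1, chosen after its values were seen, was at 26.2 ± 6.38 CPM in WT and 17.3 ± 4.53 CPM in KO at LPS 2 h, at or below the floor in Control 2 h and listed at 0 in WT at 24 h.

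**Figure D5:**
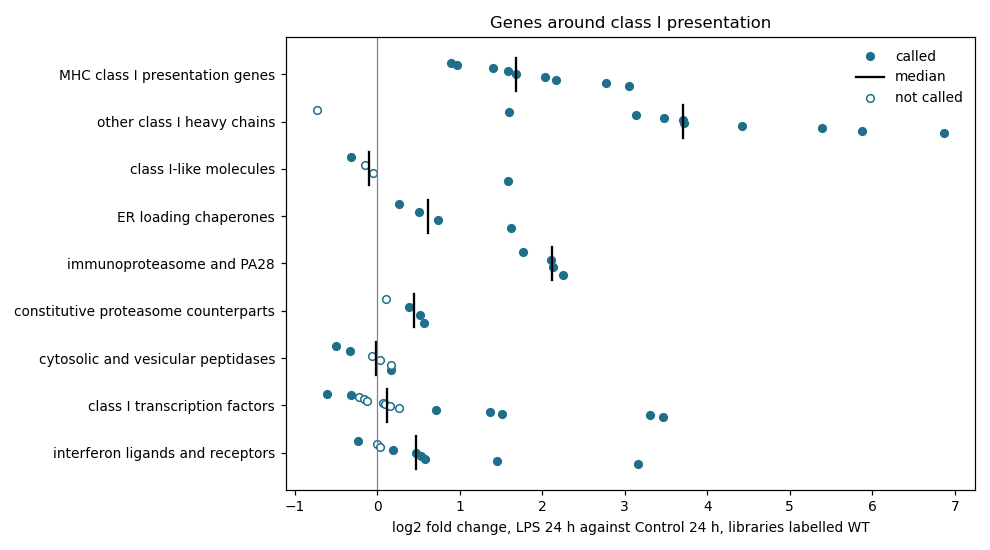
Log2 fold change of LPS 24 h over Control 24 h in the WT libraries (horizontal axis) for the 9 genes (top row) and 8 lists of related genes; each point is a gene, filled where adjusted p was under 0.05, and bars are list medians. The 9 genes lie at 0.89 to 3.05, other class I heavy chains have a median of 3.71 and the constitutive proteasome one of 0.45.

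Neighbouring and overlapping genes limit how far single values can be assigned. The 6 members on chromosome 17 lie within chr17:33915899-36032855, a stretch with 85 other tested genes, of which 36.5% in WT and 42.4% in KO were called higher at LPS 24 h, beside 19.6% and 19.9% of all genes. Erap1 shares 834 exon bases with Cast on the other strand, and Cast fell by 0.38 (SE 0.08) in WT and 0.45 (SE 0.08) in KO on the log2 scale at LPS 24 h. On the other strand, Tapbp shares 904 exon bases with Gm19412, Tap2 shares 533 with Gm15821, and Tap1 shares 212 with a gene not analysed here. Gm15821 had a mean of 5.17 counts a library, and Gm19412 was not analysed here. Tapbp also shares 149 exon bases with Zbtb22 on the same strand, and Zbtb22 was at 0.07 (SE 0.13) in WT, not called. The strand setting of the counting is not given in the sources used here, so reads of these genes on opposite strands cannot be told apart where they overlap. At LPS 24 h markers also moved: the summed macrophage markers ranged from 7485 to 8641 CPM in WT against 5286 to 5371 in WT Control 24 h. Of the 7 macrophage markers, 4 were called higher and 3 lower in each genotype. Beside this, 19.6% of all genes in WT and 19.9% in KO were called higher, and 19.9% and 21% lower. The granulocyte precursor sum ranged from 338 to 451 CPM in WT LPS 24 h against 58.6 to 65.4 CPM in WT Control 24 h. Of its 6 markers tested, Lcn2 alone was called higher, by 5.88 (SE 0.23) on the log2 scale in WT, reaching 420 CPM, while 3 were called lower in WT and 4 in KO, and the median log2 fold changes were -1.07 and -1.39. The fibroblast marker sum was 35.9 to 125 CPM in KO Control 24 h and 0.56 to 150 CPM in KO LPS 24 h, with Dcn and Pdgfra at or below 1.01 CPM in every library. Dendritic cell marker sums overlapped in WT, at 4.28 to 9.40 CPM with LPS 24 h and 3.08 to 5.65 CPM in Control 24 h. In KO they did not overlap, at 5.21 to 7.27 CPM with LPS 24 h and 8.37 to 10.67 CPM in Control 24 h. Of 3 dendritic cell markers tested, 1 was called higher and 0 lower in WT, and 0 higher and 2 lower in KO. The part of all these markers in the response was not tested.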

How the data were processed

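Total RNA was sequenced from 42 BMDM libraries. Per the labels, libraries came from a stranded total RNA kit with ribosomal depletion, and reads were trimmed with fastp 0.19.11 and aligned with STAR 2.7.3a to mm10. The authors deposited raw counts per Ensembl gene, with no normalisation; the annotation release and the strand setting of the counting are not given in the sources used here. Columns name groups and not replicates, so library numbers follow column order and pair nothing. The 9 genes, named for their roles, and all gene lists were chosen with earlier results of these data known. Genes other than the 9 were named by a rule: at most 4 per list, with the smallest adjusted p at LPS 24 h in WT, plus Irf1 and Rfx5, the targeted gene Irf5, Lyz2, and the 8 most similar profiles; exceptions are stated (Lcn2 was named after its values were seen), and 1 gene named by the rule is not reported here.

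Counts were tested in R 4.3.3 with edgeR 4.0.16 (quasi-likelihood F test, TMM, filterByExpr) in 1 fit of the 14 groups, and p-values were adjusted by Benjamini-Hochberg over 11624 genes, with calls at an adjusted p under 0.05. A standard error is the fold change divided by the square root of F. Symbols and positions came from GENCODE for GRCm38, and 63 of 66 genes in the lists were found in the table. Libraries of 1 group differed by more than sampling noise (chi-square per degree of freedom 1.93 to 9.32 over 42 pairs). The script was tested on simulated data. Alternatives were RLE size factors, no filter on low counts, a fit of only the libraries compared, DESeq2 1.42.0 with independent filtering off, a prior count of 0.5 for profile likeness, and each library left out.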

Additional observations from a re-analysis of the deposited data

Results flagged for a closer look

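The 24 h response to LPS differed from the 2 h response for every one of the 9 genes in both genotypes, when the difference of the log2 fold changes itself was tested (edgeR's quasi-likelihood test). In WT libraries it was larger at 24 h by 1.78 for H2-K1, 0.93 for H2-D1, 2.76 for H2-T23, 1.61 for B2m, 2.65 for Tap1, 1.33 for Tap2, 1.93 for Tapbp, 0.94 for Erap1 and 1.61 for Nlrc5. In libraries labelled KO it was larger by 1.79 for H2-K1, 0.82 for H2-D1, 2.37 for H2-T23, 1.58 for B2m, 2.52 for Tap1, 1.24 for Tap2, 1.59 for Tapbp, 0.68 for Erap1 and 1.38 for Nlrc5. The adjusted p lay at or below 4.42e-05 in all 18 cases, and with any 1 library left out all 9 remained called in each genotype. These differences include the change of Control between 2 h and 24 h as well as that of the LPS libraries.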

How the results depend on the processing

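No paired analysis was possible because the table's columns carry no replicate number. RLE size factors, no filter on low counts, only the libraries compared and DESeq2 left the number of members called within 1.5 times in all 25 comparisons, and no result changed direction. Leaving out 1 library gave 0 to 3 members called at LPS 2 h in WT, 3 to 5 at LPS 2 h in KO, 1 to 2 for KO against WT at Control 0 h, and 0 to 2 for Control 2 h against 0 h. The count for LPS 2 h in WT was 0 without Control library 3 or LPS library 2, and in KO 3 without Control library 3 or LPS library 1. With LPS 24 h it stayed at 9 in both genotypes. Over all alternatives, 1024 values of single genes kept their side of the threshold, 51 lost the call and 2 gained it; Nlrc5 at LPS 2 h in KO was not called with only the libraries compared (0.39, adjusted p = 0.0669). RLE against TMM moved the median of all genes by less than 0.01 (log2). Depth limits genes near the floor of 0.387 to 1.05 CPM; all 9 members had at least 101 counts in each library.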
